A study of Mus musculus with 6 samples.

Results

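The genes described here encode 10 transcription factors that are linked to T cell exhaustion: Tox, Tox2, Nr4a1, Nr4a2, Nr4a3, Batf, Irf4, Nfatc1, Nfatc2 and Ikzf2. They were chosen by name from the 29370 genes of the deposited matrix, and each was followed in the gene counts and in its transcripts. The study compared RNA from wild-type (WT) mouse CD8+ T cells after 48 h in complete T cell medium supplemented with 100 µM palmitate, a saturated fatty acid, with RNA from control CD8+ T cells, in 3 libraries each. Per the labels, the CD8+ T cells came from mouse pancreas, spleen and lymph nodes. The content of the control medium in place of palmitate, the strain, age and number of the mice, and any activation of the cells are likewise not given in the sources used here. Nothing in the labels ties the 3 libraries of a group to separate mice or cultures. The p-values therefore refer to the spread among these libraries, and that spread may be technical.

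Exhaustion is the state of low function that CD8+ T cells enter when antigen persists, as in chronic infection and tumours. A signal from the T cell receptor raises calcium, calcium activates the phosphatase calcineurin, and calcineurin lets the NFAT factors (NFATc1, encoded by Nfatc1, and NFATc2, encoded by Nfatc2) enter the nucleus. NFAT that acts together with AP-1 dimers drives effector genes, and NFAT that acts without AP-1 drives genes of exhaustion, among them Tox and the Nr4a genes. TOX and TOX2 are HMG-box DNA-binding proteins, and TOX is required for exhausted cells to persist. NR4A1 (Nur77), NR4A2 and NR4A3 are orphan nuclear receptors that are induced within hours of receptor signalling. BATF is an AP-1 family protein that binds composite DNA elements together with the interferon regulatory factor IRF4, and Ikzf2 encodes Helios, an Ikaros family protein found in regulatory T cells and in some dysfunctional CD8+ T cells.

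The gene matrix held 16724588 to 24777611 estimated reads in each palmitate library and 26042768 to 29362276 in each control library. Genes of the CD8+ T cell list (Cd8a, Cd8b1, Cd3d and others) summed to 2363 to 2591 CPM in palmitate libraries and to 1879 to 2142 CPM in control libraries (CPM, reads as a share of the library's total, here scaled by edgeR's TMM factors throughout), so the labelled cell type was present. Of its 10 genes, 7 rose, and 7 without control 1, 3 without palmitate 2, palmitate 3 or control 2, 2 without palmitate 1 and 0 without control 3. Over all genes tested, 11.1% rose and 11.7% fell, and 33.1% were called with the replicate number as a block. Cd4 stayed at 0.565 CPM or below in every library. The B and plasma cell list summed to 289.7 to 339.5 CPM in palmitate libraries and 184.4 to 250.8 CPM in control libraries. Of its 15 genes, 3 of the 11 tested rose (Cd79a, Igha and Jchain), or 6 with the replicate number as a block and 1 without control 3, and its defining marker Tnfrsf17 had 0 reads. The NK cell list, of which Eomes made up most, summed to 148 to 164 CPM with palmitate and 171 to 188 CPM in control. The macrophage and dendritic cell list summed to 14.8 to 22.8 CPM with palmitate and 14.8 to 19.8 CPM in control, and the pancreatic list to 1.53 to 3.10 CPM with palmitate and 1.24 to 1.90 CPM in control, with 5 of its 12 genes at 0 reads. The mitochondrial share of reads was 0.958 to 1.14% in palmitate libraries and 0.899 to 1.07% in control libraries. The part of these differences in the results was not tested.

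Palmitate-treated CD8+ T cells held more Tox RNA (1.83-fold, 95% interval 1.41 to 2.38) and less Batf RNA (0.725-fold), while Irf4, the most abundant of the genes per length, differed by 0.01 on the log2 scale. Of the 10 genes, 9 had enough reads to test; 1 rose (Tox), 1 fell (Batf) and 7 did not pass an adjusted p of 0.05 (edgeR quasi-likelihood test, Benjamini-Hochberg adjustment over all 12068 genes tested). Over all genes tested, 22.9% passed, with 11.1% higher and 11.7% lower, so the share of these genes that passed was close to that of all genes. In counts, 1343 genes rose and 1416 fell; with upper-quartile scaling 1651 rose and 1052 fell, and Tox was still called and Batf was not. The median log2 fold change of the 9 was 0.01, against 0.02 over all genes. The 3 palmitate and 3 control values did not overlap for 4 of the 9, against 42.9% of all genes: Tox and Nfatc1 were higher in every palmitate library, as were 21.6% of all genes, and Nr4a3 and Batf were lower in every palmitate library, as were 21.2%. An unadjusted p under 0.05 was reached by 5 of the 9 and by 37.8% of all genes. Fitted with the replicate number as a block, 5 of the 9 passed (Tox, Batf, Nr4a1, Nr4a3 and Nfatc1), where 33.1% of all genes passed. Libraries of whole cell populations cannot tell fewer cells of a type from less RNA per cell.

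**Figure D1:**
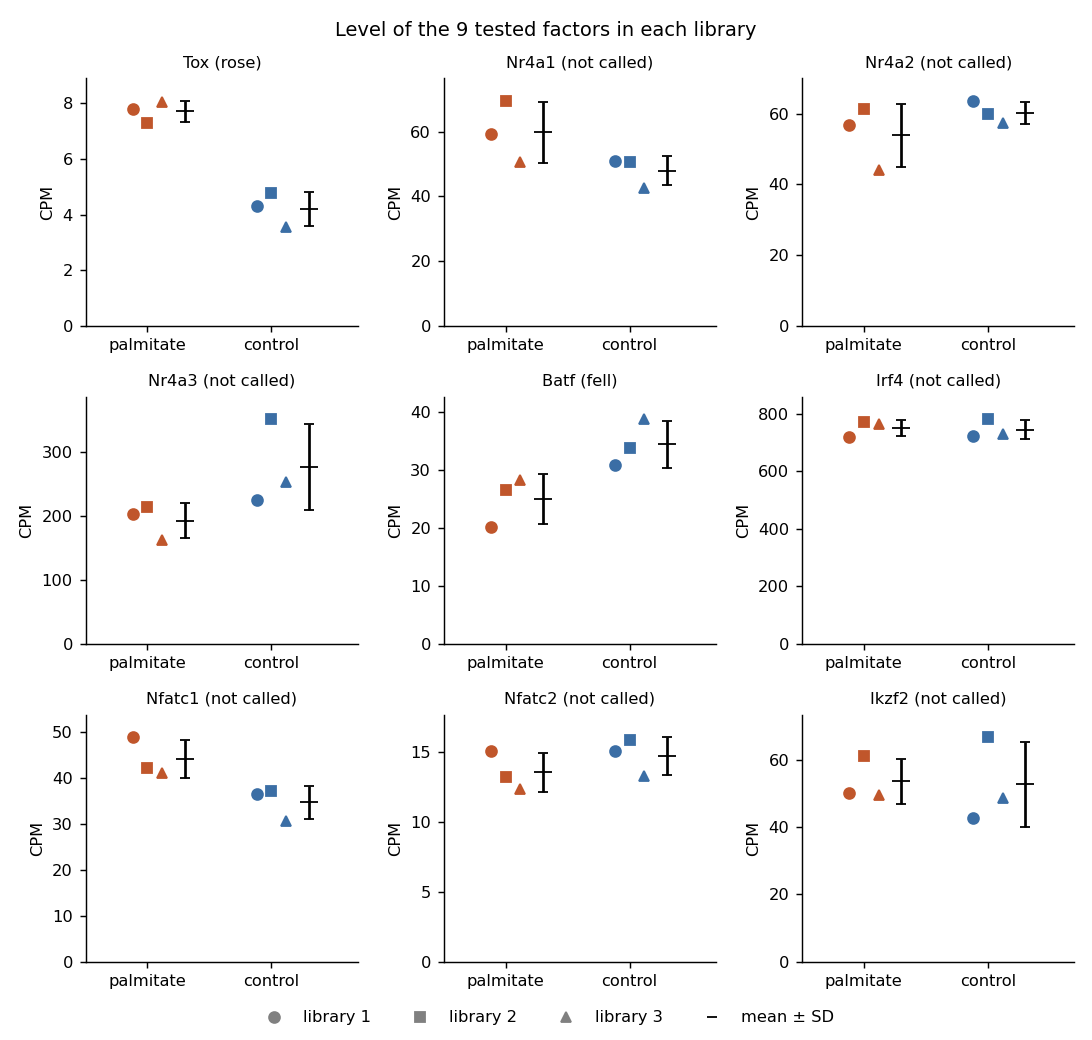
Level of each gene in the 6 libraries (y axis, CPM; a panel per gene, each with its own axis from 0), palmitate libraries left and control libraries right. Circles, squares and triangles are libraries 1, 2 and 3, and bars are the mean ± SD of 3 libraries: Tox and Nfatc1 lie higher and Nr4a3 and Batf lower in every palmitate library, and the other groups overlap.

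Tox (ENSMUSG00000041272, chromosome 4), the founding gene of the TOX family, had 7.78, 7.31 and 8.05 CPM in palmitate libraries, against 4.30, 4.77 and 3.56 CPM in control libraries. The groups were well apart, with the lowest palmitate library above the highest control library. The log2 fold change was 0.87 ± 0.16 (SE), with an adjusted p of 0.0103. The gene was called without each library in turn except control 3, the lowest control library, where the adjusted p was 0.0536. The values rest on few reads: Tox had 135 to 193 reads in palmitate libraries and 101 to 125 reads in control libraries. Among 9277 genes with a mean of at least 2 on the log2 CPM scale, those whose centred log2 levels over the 6 libraries lay closest to Tox were Zkscan7 (root mean square difference 0.07), Wdr11 (0.09) and Kat6b (0.10). Zkscan7 encodes a zinc-finger protein and Kat6b a histone acetyltransferase. Tox2 (ENSMUSG00000074607, chromosome 2), the other TOX gene followed, had 0 reads in all palmitate libraries and in 2 control libraries, and 1 read in control 1. A count of 0 allows up to 0.118 to 0.179 CPM in a palmitate library (3 reads, counting error only), so Tox2 was not detectable at this depth.

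None of the NR4A genes passed in the reported fit. Nr4a1 (ENSMUSG00000023034, chromosome 15) had 59.3, 69.6 and 50.6 CPM in palmitate libraries and 50.9, 50.5 and 42.7 CPM in control libraries. Each palmitate library lay above the control library of the same number, but palmitate 3 lay just below control 1. For Nr4a1 the log2 fold change was 0.32 ± 0.13 (SE), with an adjusted p of 0.104, or 0.0200 with the replicate block. These Nr4a1 values match, within rounding, the reads of its transcript Nr4a1-201 alone, so the matrix leaves out the reads of its other transcripts. With all transcripts summed the log2 fold change was 0.24, with an adjusted p of 0.153. Nr4a3 (ENSMUSG00000028341, chromosome 4) had 202.7, 214.0 and 162.0 CPM in palmitate libraries and 224.4, 352.2 and 253.2 CPM in control libraries. All palmitate values lay below all control values, and control 2 stood well above the other two controls. This gave Nr4a3 a log2 fold change of -0.52 ± 0.18 (SE), with an adjusted p of 0.0810; it was 0.0232 with the replicate block, 0.0104 with DESeq2 and 0.0389 without control 1, the lowest control library. Nr4a2 (ENSMUSG00000026826, chromosome 2) had 56.7, 61.2 and 44.0 CPM in palmitate libraries and 63.7, 59.9 and 57.5 CPM in control libraries, which overlap. Its log2 fold change was -0.16 ± 0.12 (SE) with an adjusted p of 0.371, and the sign turned to 0.15 when transcript counts were summed with length offsets.

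The NR4A genes are classic targets of cAMP-responsive CREB proteins, whose element has the core TGACG, and their proximal promoters are shown because all of them carry that core repeatedly. The sequences are the 250 bases before the transcription start in the RefSeq table for GRCm38.p6, written 5′ to 3′ on the gene's strand, with capitals on each TGACG or its reverse complement CGTCA. Nr4a1 is at chr15:101266596-101266845 (plus strand), Nr4a2 at chr2:57124004-57124253 (minus strand) and Nr4a3 at chr4:48045055-48045304 (plus strand).
Nr4a1: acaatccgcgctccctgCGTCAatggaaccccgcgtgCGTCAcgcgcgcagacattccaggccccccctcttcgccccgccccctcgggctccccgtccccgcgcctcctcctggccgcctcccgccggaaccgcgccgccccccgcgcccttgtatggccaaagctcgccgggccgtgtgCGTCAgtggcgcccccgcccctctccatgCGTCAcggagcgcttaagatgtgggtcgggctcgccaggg
Nr4a2: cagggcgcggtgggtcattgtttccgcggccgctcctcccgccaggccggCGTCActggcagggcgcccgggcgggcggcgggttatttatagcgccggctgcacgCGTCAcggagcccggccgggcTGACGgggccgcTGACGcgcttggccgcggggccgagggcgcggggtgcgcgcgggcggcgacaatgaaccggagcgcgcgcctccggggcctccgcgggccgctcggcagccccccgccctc
Nr4a3: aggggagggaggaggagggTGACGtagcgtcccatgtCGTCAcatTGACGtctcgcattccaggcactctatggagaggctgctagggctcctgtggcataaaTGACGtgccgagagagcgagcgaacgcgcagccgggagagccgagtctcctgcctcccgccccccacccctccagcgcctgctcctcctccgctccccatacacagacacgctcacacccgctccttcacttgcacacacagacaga
Each window held 4 copies on either strand. Of 32851 promoter windows of this length in the table, 17.8% held at least 1 copy and 45 windows (0.137%) held at least 4. Those windows were not matched to the NR4A windows in base content, and the core was picked with its copies already seen. These shares are therefore a description and not a test. The full palindrome TGACGTCA was found in 1.55% of windows, the NFAT core GGAAA in 55.6%, the AP-1 element TGANTCA in 6.75% and the NR4A monomer element AAAGGTCA in 1.34%, each on either strand, and TGACGTCA contains the TGACG core. The NR4A windows held no TGACGTCA, TGANTCA or AAAGGTCA, and GGAAA stood once, in Nr4a2. A match is only a match of letters, and no match says only that these letters are not in the window. The window of Batf held 1 TGACG and 2 GGAAA. Windows were examined for 7 of the 10 genes, and none was examined for Tox, Nfatc1 or Ikzf2.

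Ratios between genes of a family cancel the scaling of a library. They were chosen after the values had been seen, so they and their p-values are given as a description. How many ratios of other gene pairs separate the groups was not computed. Of single genes, 42.9% had groups that did not overlap. The ratio of Nr4a3 to Nr4a1 reads was 3.42, 3.08 and 3.20 in palmitate libraries, against 4.41, 6.97 and 5.93 in control libraries. The groups did not overlap, and the palmitate libraries varied little (3.23 ± 0.172, SD, n = 3) beside the control libraries (5.77 ± 1.29, SD, n = 3). The ratio of Nr4a2 to Nr4a1 was 0.956, 0.880 and 0.870 in palmitate libraries and 1.25, 1.19 and 1.35 in control libraries, again without overlap. The ratio of Nr4a3 to Nr4a2 was 3.57, 3.49 and 3.68 in palmitate libraries and 3.53, 5.88 and 4.41 in control libraries, and these overlap. The Nr4a1 reads in these ratios are those of the matrix; with all transcripts summed, the log2 difference between the groups was -0.76 for Nr4a3 to Nr4a1, against -0.81 from the matrix, and -0.42 for Nr4a2 to Nr4a1, against -0.48. With 3 libraries against 3, a two-sided exact permutation test cannot give a p below 0.1, which the first 2 ratios reached; over the 5 ratios computed the adjusted p was 0.125, and for Nr4a3 to Nr4a2 it was 0.3.

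**Figure D2:**
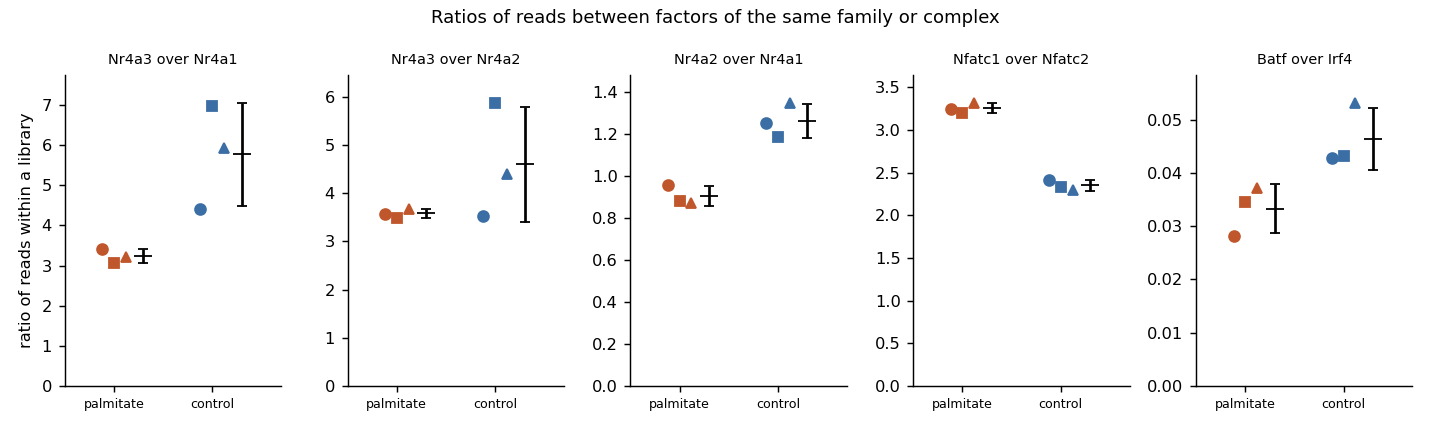
Ratio of reads between pairs of genes in each library (y axis, linear scale from 0), palmitate libraries left and control libraries right of each panel, with the mean ± SD of 3 libraries as bars. Nr4a3/Nr4a1, Nr4a2/Nr4a1 and Batf/Irf4 were lower and Nfatc1/Nfatc2 higher in every palmitate library, and Nr4a3/Nr4a2 overlapped. Ratios of other gene pairs were not computed for comparison.

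Batf (ENSMUSG00000034266, chromosome 12) had 20.2, 26.6 and 28.3 CPM in palmitate libraries, against 30.8, 33.8 and 38.9 CPM in control libraries. Every palmitate library lay below every control library, and palmitate 1 was the lowest. The log2 fold change was -0.46 ± 0.14 (SE), and the adjusted p of 0.0491 lay just inside the threshold. The call was kept with the replicate block (0.00533) and without control 1 (0.0350). It was lost without any other single library (0.0630 to 0.169), with upper-quartile scaling (0.0696), over genes with a mean of at least 5 CPM (0.0502) and with length offsets (0.0571). Dcun1d3, Gm10053 and Hsh2d had the centred log2 levels closest to Batf (root mean square differences 0.06 each); Dcun1d3 fell, and Gm10053 and Hsh2d had adjusted p-values of 0.0676 and 0.0969.

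Irf4 (ENSMUSG00000021356, chromosome 13), whose protein is the partner of BATF, had 717.4, 769.6 and 762.9 CPM in palmitate libraries and 721.0, 781.4 and 730.4 CPM in control libraries. The values interleave, and both groups are tight: the replicate SD of 0.06 (log2) was at the 7.57th percentile of the tested genes. Between the groups the log2 fold change was 0.01 ± 0.07 (SE), with a 95% interval of -0.15 to 0.17. Irf4 is also a plasma cell factor, and the plasma cell gene Jchain, which links polymeric antibodies, was at 6.78, 10.7 and 11.8 CPM with palmitate and 1.58, 1.24 and 2.50 CPM in control. Sdc1 (CD138), another plasma cell marker, was at 2.70, 3.50 and 3.46 CPM with palmitate and 3.78, 3.93 and 5.25 CPM in control, lower in every palmitate library, with an adjusted p of 0.172. The ratio of Batf to Irf4 reads was 0.0282, 0.0345 and 0.0371 in palmitate libraries and 0.0427, 0.0433 and 0.0532 in control libraries, so the partners stood further apart in every palmitate library (exact permutation p = 0.1, the smallest possible; 0.125 adjusted).

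Irf4 reads were split between a pair of coding transcripts that differ in a single place, 3 bases of the coding sequence. The stretch around it in the GENCODE M21 transcripts, from base 577 of each, is shown because it is the only place that tells reads of these transcripts apart; capitals mark the 3 bases that only Irf4-201 (4764 bases) has.
Irf4-201: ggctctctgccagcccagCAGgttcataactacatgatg
Irf4-202: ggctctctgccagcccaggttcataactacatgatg
Irf4-201 took 60.8, 57.6 and 64.7% of the gene's reads in palmitate libraries and 61.1, 58.1 and 65.4% in control libraries. Irf4-202, of 4761 bases, took 38.6, 41.9 and 34.9% with palmitate and 38.4, 41.6 and 34.2% in control. The shares followed the library number in both groups, highest in library 3 for Irf4-201 and in library 2 for Irf4-202.

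Of the NFAT genes, Nfatc1 (ENSMUSG00000033016, chromosome 18) had 48.9, 42.3 and 41.2 CPM in palmitate libraries and 36.4, 37.1 and 30.5 CPM in control libraries. All palmitate values lay above all control values. The log2 fold change was 0.35 ± 0.11 (SE), with an adjusted p of 0.0520, just outside the threshold; it was 0.0174 with the replicate block, 0.0291 with DESeq2, 0.0310 from summed transcripts, 0.0347 with upper-quartile scaling, 0.0393 over genes of at least 5 CPM and 0.0496 with limma-voom. Nfatc2 (ENSMUSG00000027544, chromosome 2) had 15.1, 13.2 and 12.4 CPM in palmitate libraries and 15.1, 15.9 and 13.3 CPM in control libraries, and the groups overlap (log2 fold change -0.12, 95% interval -0.40 to 0.16). The ratio of Nfatc1 to Nfatc2 was the most uniform of those computed: 3.24, 3.20 and 3.32 in palmitate libraries and 2.42, 2.33 and 2.30 in control libraries. The means were 3.25 ± 0.0596 and 2.35 ± 0.0613 (SD, n = 3 each), with the smallest exact permutation p that 3 against 3 libraries allow, 0.1, and 0.125 adjusted.

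Ikzf2 (ENSMUSG00000025997, chromosome 1) had 49.98, 61.2 and 49.5 CPM in palmitate libraries and 42.7, 66.7 and 48.6 CPM in control libraries. Control libraries enclosed the palmitate libraries, and in both groups library 2 was the highest. The log2 fold change was 0.03 ± 0.17 (SE), with a 95% interval of -0.37 to 0.43. The regulatory T cell factor Foxp3 was at 0.118 to 0.403 CPM in palmitate libraries and 0 to 0.0401 CPM in control libraries. It had too few reads to test, as 3 reads equal 0.118 to 0.179 CPM in a palmitate library. The matrix held 48.5% of its transcript reads. The CD4 and regulatory T cell list summed to 523 to 648 CPM with palmitate and 563 to 1038 CPM in control. Il2ra, Ctla4 and Tnfrsf18 made up most of that sum, and Cd4 was at 0.565 CPM or below. Il2ra is also in the list of genes that receptor signalling induces early, and Ctla4 in that of exhaustion-linked receptors.

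**Figure D3:**
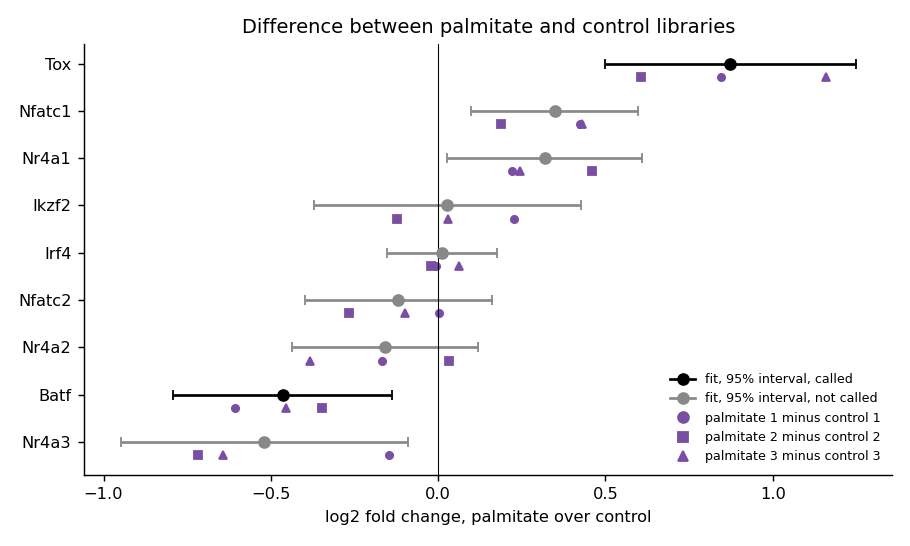
Log2 fold change of the 9 tested genes, palmitate over control (x axis), with 95% intervals from edgeR; black marks called genes, and the purple points below each interval are the differences of same-numbered libraries, palmitate minus control. The interval of Tox (0.50 to 1.25) lies farthest from 0 and that of Irf4 (-0.15 to 0.17) is the narrowest.

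To compare levels between genes, coding transcripts were summed in TPM, the deposited abundance that corrects for transcript length. Irf4 stood at 209 ± 3.40 TPM in palmitate libraries and 198 ± 6.79 TPM in control libraries (SD, n = 3 each). Nr4a3 was next, with 50.2 ± 8.35 TPM with palmitate and 70.4 ± 16.9 TPM in control. Nr4a1 had 41.3 ± 7.12 TPM with palmitate and 33.5 ± 3.75 TPM in control, and Batf had 31.1 ± 4.33 TPM with palmitate and 41.8 ± 5.19 TPM in control. The order of these last 2 thus differed between the groups, but their values overlap within each group, and in palmitate libraries Nr4a3 and Nr4a1 overlap too. Nr4a2 (14.7 ± 3.24 TPM with palmitate, 15.7 ± 2.16 TPM in control) and Nfatc1 (12.7 ± 2.06 TPM with palmitate, 9.65 ± 0.66 TPM in control) came next. Ikzf2 had 8.66 ± 1.34 TPM with palmitate and 8.16 ± 1.82 TPM in control, Tox had 2.09 ± 0.0424 TPM with palmitate and 1.16 ± 0.152 TPM in control, and Nfatc2 had 0.492 ± 0.434 TPM with palmitate and 0.286 ± 0.253 TPM in control. Coding transcripts held 83.6% of Tox reads, 69.8% of Nr4a2 reads and 16.4% of Nfatc2 reads. The 182-base processed transcript Nr4a2-204 shows why non-coding transcripts were left out of these levels: 148 reads over the 6 libraries gave it 23.3 to 41.5 TPM with palmitate and 18.1 to 26.6 TPM in control. Short coding transcripts stayed in the sums. Nr4a1-203, of 344 bases, gave a mean of 9.77 TPM with palmitate and 6.35 TPM in control on 165 reads. Irf4-203, of 360 bases, gave 19.5 TPM with palmitate and 14.6 TPM in control on 480 reads. Leaving out non-coding transcripts also set the place of Nfatc2. With all its transcripts, Nfatc2 had 2.92 ± 0.302 TPM with palmitate and 3.15 ± 0.200 TPM in control. Tox summed in that way had 3.12 ± 0.205 TPM with palmitate and 1.71 ± 0.438 TPM in control.

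The genes had 53 transcripts in the deposited tables, and 28 had enough reads to test. By edgeR none of the 39731 transcripts tested reached an adjusted p of 0.05, while 6297 (15.8%) had an unadjusted p under 0.05 and limma-voom called 12, none of them from these genes. Of the 28, 6 had an unadjusted p under 0.05: Tox-201, Tox-203, Nr4a1-202, Nr4a1-204, Nr4a3-203 and Batf-201. Tox-201, the main coding transcript, had 2.09, 2.05 and 2.13 TPM in palmitate libraries and 1.25, 1.24 and 0.984 TPM in control libraries, and its log2 fold change was 0.77 ± 0.18 (SE; adjusted p 0.127). Its groups do not overlap, and the share of all transcripts whose levels separate in this way was not computed.

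Of the Nr4a1 transcripts, none passed. The transcript Nr4a1-202 took 5.02, 2.94 and 6.53% of the gene's reads in palmitate libraries, against 10.5, 10.6 and 11.8% in control libraries. Nr4a1-201, the most abundant, took 84.4, 85.4 and 84.6% in palmitate libraries and 80.9, 82.1 and 81.2% in control libraries. Neither pair of groups overlaps in these shares. How many transcripts of all genes have read shares that separate the groups was not computed. The log2 fold change of Nr4a1-202 was -1.03 ± 0.23 (SE; adjusted p 0.119) and that of Nr4a1-201 was 0.27 ± 0.14 (SE; adjusted p 0.413, 95% interval -0.06 to 0.60); the difference between them was not tested. The gene matrix held 83.1% of the Nr4a1 reads of the transcript tables, 93.0% of those of Nfatc1 and at least 99.6% of those of the other genes with reads.

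**Figure D4:**
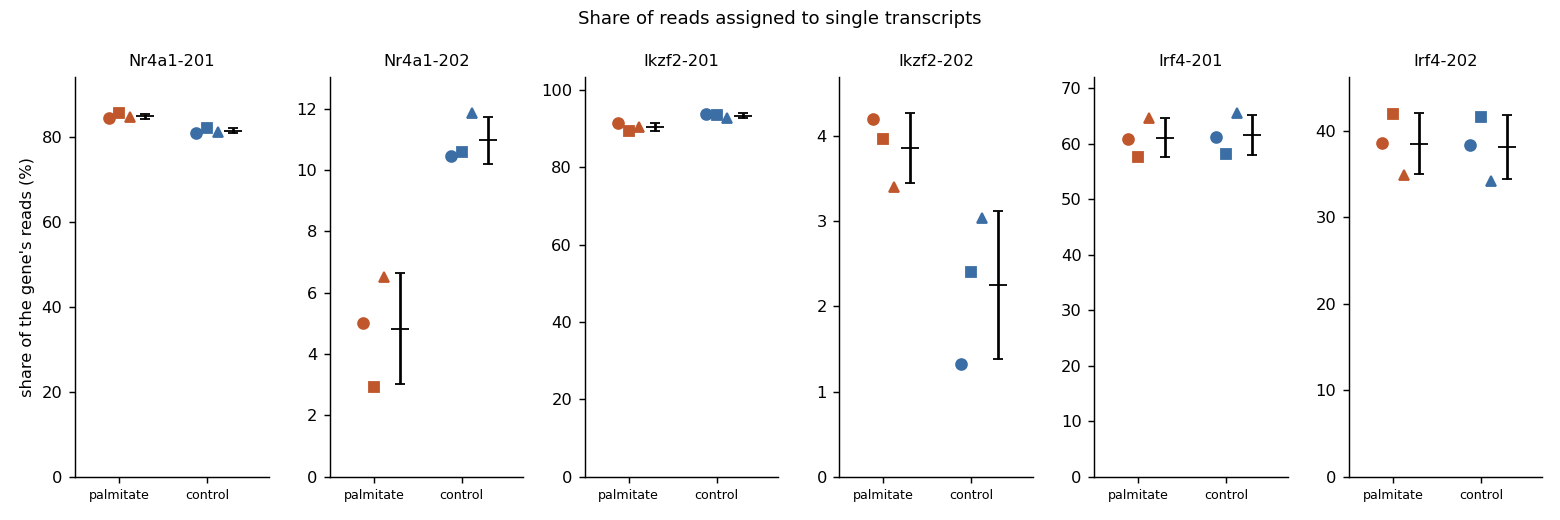
Share of a gene's reads held by Nr4a1-201, Nr4a1-202, Ikzf2-201, Ikzf2-202, Irf4-201 and Irf4-202 (y axis, percent) in the 6 libraries. Palmitate libraries are left and control libraries right, with the mean ± SD as bars. Nr4a1-202 took 2.94 to 6.53% with palmitate and 10.5 to 11.8% in control, while the Irf4 transcripts overlap between the groups.

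In some genes the split between transcripts varied more between libraries than between groups. The processed transcript Nfatc2-208 took 64.8, 63.3 and 91.0% of Nfatc2 reads in palmitate libraries and 79.9, 79.4 and 94.3% in control libraries, and the coding Nfatc2-202 took 30.5, 29.4 and 0% with palmitate and 14.9, 17.8 and 0% in control. Library 3 of both groups thus had no read assigned to Nfatc2-202. Nr4a2-203 took 29.1, 18.1 and 0% of Nr4a2 reads with palmitate and 38.4, 20.2 and 21.1% in control, where Nr4a2-201 took 44.1, 53.1 and 67.7% with palmitate and 35.1, 48.0 and 42.3% in control. Summed, those Nr4a2 transcripts gave 36.6, 39.0 and 27.2 CPM with palmitate and 41.4, 39.2 and 34.1 CPM in control, and palmitate 3 was the lowest. For Ikzf2, the coding Ikzf2-201 took 91.4, 89.5 and 90.5% of reads with palmitate and 93.8, 93.6 and 92.8% in control, without overlap; Ikzf2-202 took 4.19, 3.97 and 3.40% with palmitate and 1.32, 2.40 and 3.03% in control, on 240 reads in all. Batf-201 and Nr4a3-203 held nearly all reads of their genes.

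Relatives of these genes in the same families (TOX, NFAT, BATF, IRF and Ikaros) were tested in 15 cases. Of these, 4 rose and 11 did not pass, with a median log2 fold change of 0.05. Among all genes tested, 11.1% rose and 11.7% fell, with a median of 0.02. The relatives that rose were 3 IRF genes and an Ikaros gene. Irf1 had 303.0, 303.9 and 338.4 CPM in palmitate libraries and 227.0, 142.5 and 174.9 CPM in control libraries (log2 fold change 0.80, adjusted p 0.0146). Irf9, a subunit of the interferon-activated ISGF3 complex, rose by 0.44 on the log2 scale, Ikzf3 (Aiolos) rose by 0.41 and Irf7 rose by 1.20, the last called in 1 of 6 runs that left out a library. Among those that did not pass, Nfatc3 had 110.0 to 118.8 CPM with palmitate and 107.0 to 127.7 CPM in control, and Batf3 had 7.22, 14.5 and 15.0 CPM with palmitate and 13.9, 21.7 and 21.9 CPM in control (adjusted p 0.168, or 0.00357 with the replicate block). With the block, 3 of the 15 rose and 2 fell, and Irf7 was the call lost (adjusted p 0.0565). The count that rose was 0 without palmitate 3 or control 3 and 2 without palmitate 2. The sign of Nfatc3 turned with length offsets (-0.02 as reported, 0.10 with them).

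Of 25 tested genes for calcium and calcineurin signalling, which acts upstream of NFAT, 4 rose and 1 fell, with a median log2 fold change of 0.08. All genes tested gave 11.1% that rose and 11.7% that fell. With the replicate block 6 rose and 1 fell, where 33.1% of all genes passed. The count that rose was 1 without palmitate 3, control 2 or control 3 and 2 without palmitate 1, and 2 fell without control 1. Itpr2, a calcium release channel of the endoplasmic reticulum, had 75.0, 69.2 and 83.6 CPM in palmitate libraries and 47.4, 45.3 and 53.7 CPM in control libraries (log2 fold change 0.64, adjusted p 0.00615). Orai1, the plasma membrane calcium channel, rose by 0.40 and Dyrk2, a kinase that phosphorylates NFAT, rose by 0.32, while Ppp3r1, the regulatory subunit of calcineurin, fell by 0.40 on the log2 scale. Of 14 AP-1 partners and antagonists, 2 rose and 1 fell, with a median of 0.02. Bach1 (log2 fold change 0.80, adjusted p 0.00412) and Bach2 (0.60, 0.00788), repressors that bind AP-1-like sites, rose and were called without each library in turn. Mafg, a small Maf partner, fell by 0.27 (adjusted p 0.0481), but was called in none of the 6 runs that left out a library. Jun had 26.5, 49.1 and 42.2 CPM with palmitate and 20.8, 31.1 and 26.1 CPM in control, with an adjusted p of 0.127, or 0.00369 with the block.

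Of 19 genes that receptor signalling induces early, 4 rose and 2 fell, with a median of -0.01, and with the block 5 rose and 5 fell. For this list and the next, the shares over all genes were 11.1% that rose and 11.7% that fell. With the block 33.1% of all genes passed. Without palmitate 3 or any of the controls 2 rose, and without control 3 only 1 fell. Spry1 (0.80, adjusted p 0.00524) and Dusp2 (0.55, 0.00691), inhibitors of the MAP kinase pathway, rose, while Tnfrsf9, the costimulatory receptor 4-1BB, fell by 0.49 (0.00987) and Crtam fell by 0.54 (0.0113). Egr2, a factor of anergic T cells that acts next to NFAT, had 80.3, 63.6 and 72.1 CPM with palmitate and 64.8, 56.8 and 62.3 CPM in control (adjusted p 0.131, or 0.0354 with the block); its log2 fold change of 0.23 turned to -0.18 with length offsets. Of 15 receptors and ectoenzymes linked to exhaustion, 3 rose and 12 did not pass, with a median of 0.17; with the block 5 rose and 1 fell. Only 1 rose without control 2 or control 3, and 4 fell without control 1; DESeq2 had 2 that fell. Vsir, which encodes the inhibitory receptor VISTA, had 140.4, 110.9 and 106.3 CPM with palmitate and 65.6, 46.6 and 49.6 CPM in control (1.14, 0.00529). Nt5e, the ectoenzyme CD73, rose by 1.39 (0.0207) and Btla by 0.34 (0.0325). Pdcd1, which encodes PD-1, had 68.4, 54.9 and 51.8 CPM with palmitate and 61.1, 47.6 and 47.5 CPM in control, which overlap (adjusted p 0.411). Ctla4, another inhibitory receptor, had 99.8, 122.8 and 132.8 CPM with palmitate and 131.7, 387.8 and 278.1 CPM in control (adjusted p 0.0889, or 0.106 with the block). Itpr2, Spry1, Dusp2, Crtam and Vsir were called in all 6 runs that left out a library, Tnfrsf9 in 5, Irf1, Ikzf3 and Nt5e in 4, Irf9 in 3, Orai1 and Btla in 2, and Dyrk2 and Ppp3r1 in 1.

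Of 22 other transcription factors of CD8+ T cell fate, 6 rose and 16 did not pass, with a median of 0.00. With the block 8 rose and 6 fell. Over all genes, 11.1% rose and 11.7% fell, and 33.1% passed with the block. The factors that rose included Tcf7, which encodes TCF-1 of memory and precursor exhausted cells. It had 105.5, 98.0 and 90.4 CPM in palmitate libraries and 75.2, 71.0 and 61.1 CPM in control libraries (0.50, adjusted p 0.0113). Klf2, a factor of quiescence and trafficking, had 13.1, 8.49 and 6.68 CPM with palmitate and 3.34, 1.36 and 1.37 CPM in control (2.21, 0.0130), and Bcl6 had 4.96, 5.86 and 3.52 CPM with palmitate and 1.82, 1.28 and 1.37 CPM in control (1.68, 0.00590). Myb, Lef1 and Maf rose as well; Myb and Lef1 were called in 2 of the 6 runs that left out a library and Maf in none. The count that rose was 1 without control 3 and 3 without palmitate 1 or control 2, and 3 genes of the list fell without control 1. The 3 control libraries and the 3 palmitate libraries are the same for every gene, so these counts are not independent of each other.

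**Figure D5:**
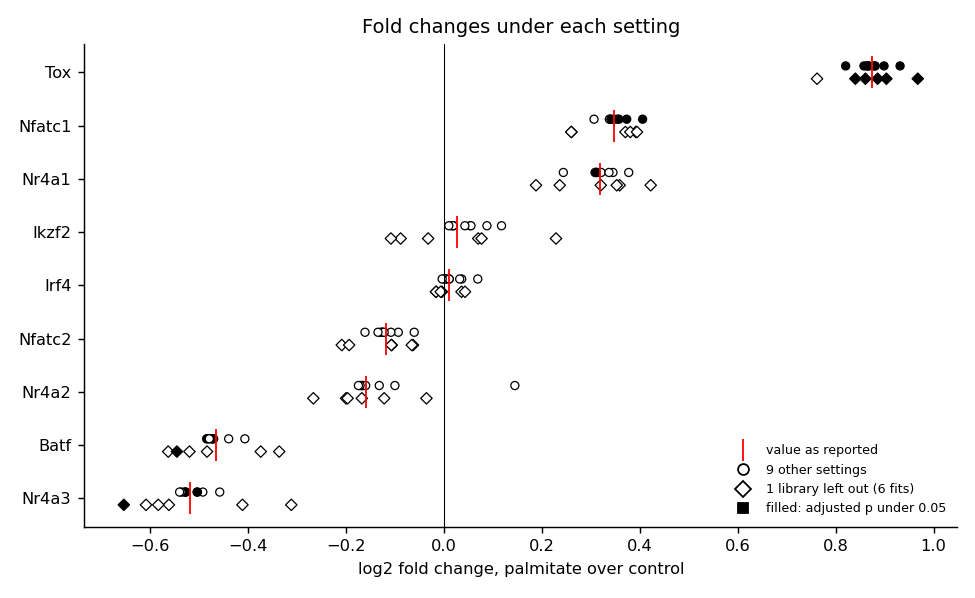
Log2 fold change of each tested gene, palmitate over control (x axis), as reported (red line), under 9 other settings (circles) and with 1 library left out (6 diamonds), filled where the adjusted p was under 0.05. Tox was called in all but 1 of the other settings, Batf in 7 and Nfatc1 in 6 of 15.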

How the data were processed

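Per the labels' protocols, total RNA of CD8+ T cells was purified on Qiagen columns and made into SMARTER mRNA-Seq libraries. The tools listed in the submitters' processing notes are Salmon 1.10.0, Trim Galore 0.6.10 and DESeq 1.42.0, with the build GRCm39; whether counting used strand is not stated there. The series table the authors deposited gives estimated counts per gene as whole numbers. Each library's own deposited table gives expected counts, which can be fractional, and TPM per transcript. Columns left unused numbered 0.

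Gene symbols came from a separate list of gene names, or from GENCODE M21 where that list had none, and 29134 of 29370 genes had a symbol. Transcript names came from GENCODE M21, which matched 98.8% of transcripts. Its build, GRCm38, differs from the submitters', so no gene positions from it are given; promoter positions are those of the RefSeq table for GRCm38.p6. For 80.8% of genes the matrix equalled the summed transcripts within 1.5 reads. Counts were scaled by TMM, filtered with filterByExpr and tested with edgeR's quasi-likelihood test (edgeR 4.0.16, R 4.3.3, palmitate over control, Benjamini-Hochberg threshold 0.05); transcript counts were tested the same way after rounding. TPM served only to compare levels between genes. DESeq2 1.42.0, limma-voom (limma 3.58.1), other scalings and filters, summed transcripts with and without length offsets, a replicate block and leaving out each library were alternatives. The procedure was also tested on simulated data.

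Same-numbered palmitate and control libraries deviated together from their group means (correlations 0.226, 0.130 and 0.152, and -0.185 to 0.0608 for differently numbered libraries). The replicate block, an alternative fit, paired libraries by number, and the reported fit did not. That pairing rests on the data, since the labels state none. The 10 genes and the gene lists were chosen with earlier results of these data known. Named by rule were all 10 genes and the transcripts with at least 10% of their gene's TPM in a library. The rule also named the 3 genes most like each called gene. It further named up to 4 genes per list by smallest adjusted p, and up to 3 per list of other cell types by level. Any further gene or transcript, among them Nr4a1-202, was chosen after its values were seen. Intervals and floors (3 reads) cover counting error or the spread of libraries only.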

Additional observations from a re-analysis of the deposited data

How the results depend on the processing

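Tox kept its direction under all 15 alternatives and its call under 14, and Nfatc2, Nr4a1, Nr4a3, Batf and Nfatc1 kept their direction under all 15. The number of these genes called was 2 as reported, 4 with DESeq2, 5 with the replicate block and 1 with summed transcripts and length offsets; leaving out a library gave 0 to 3. The replicate block changed no call of these genes other than those of Nr4a1, Nr4a3 and Nfatc1. Over all genes 2759 were called, 3993 with the block and 690 to 3433 with a library left out, the lowest without control 3. Transcripts called were 0 as reported, 12 with limma-voom and 225 without a filter on low counts. The sign turned for Nr4a2 with length offsets (0.15), for Irf4 with summed transcripts (-0.0032) and with a library left out (-0.016 to 0.043), for Ikzf2 with a library left out (-0.11 to 0.23) and for Irf4-202 likewise (-0.11 to 0.10). The cause was not tested. Depth limits Tox2, at 0 or 1 read a library, and Tox, at 101 to 193 reads a library.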
